A study of Mus musculus with 6 samples.

Results

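The expression of 10 genes of the Yap and Tead transcription system was compared between epithelium and mesenchyme of the fetal mouse small intestine. The genes were the coactivators Yap1 and Wwtr1 (which encodes Taz), the DNA-binding partners Tead1, Tead2, Tead3 and Tead4, and the targets Ccn1, Ccn2, Amotl2 and Lats2. They were taken by gene symbol from the annotation of the array, with Ccn1 and Ccn2 also under their older names Cyr61 and Ctgf. All 10 were measured, among 18161 genes in all, by 23 of 45037 probe sets, a probe set being a group of short oligonucleotides that reads 1 stretch of a transcript near its 3′ end. The study hybridised 6 Affymetrix Mouse Genome 430 2.0 arrays, 3 with RNA of the epithelium and 3 with RNA of the mesenchyme (replicates A, B and C of each). The embryos came from C57BL/6 females at E18.5, shortly before birth, with no mutation and no drug treatment named. The whole small intestine was kept for 9 hours at 4 °C in a cell release solution, after which the shaken-off epithelium and the remaining mesenchyme were collected apart. Each sample pooled 3 embryos. Of 6 pools per tissue, 3 were chosen for low cross-contamination by RT-PCR of epithelial genes (Vil1, Prkg2) and mesenchymal genes (Vim, Madcam1, Actg2). The limma p-values and standard errors therefore rest on the spread between selected pools. The fit shares this spread over all probe sets (4 residual and 31.71 prior degrees of freedom). They thus reflect mostly a common spread and less that of the single gene, and standard errors are much alike between genes. The labels do not say whether the letters pair the tissues.

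Yap and Taz are coactivators that do not bind DNA by themselves. The Hippo kinases (Mst and Lats, with their partners Sav1 and Mob1) phosphorylate them and keep them in the cytoplasm. Otherwise they enter the nucleus and act through Tead proteins on genes of growth, adhesion and matrix. Several of these genes, among them Lats2 and Amotl2, encode restraints on Yap itself. In the intestine the pathway is known from epithelial regeneration after injury and from the growth and smooth muscle differentiation of the fetal mesenchyme.

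The element GGAATG, which Tead proteins bind, was looked for on both strands of the 250 bases before the annotated starts, so also as its reverse complement CATTCC. The promoter windows were those of RefSeq for the assembly GRCm38.p6, which listed 7 of the 10 genes. The stretch around the element is shown for the 5 genes that held it, since their levels are compared in what follows. Each line is 60 bases of the gene's own strand, 5′ to 3′, with the element in capitals.
Yap1, coactivator: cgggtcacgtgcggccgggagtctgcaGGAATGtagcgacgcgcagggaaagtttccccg
Wwtr1, coactivator: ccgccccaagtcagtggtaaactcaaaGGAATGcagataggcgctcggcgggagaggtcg
Tead3, DNA-binding partner: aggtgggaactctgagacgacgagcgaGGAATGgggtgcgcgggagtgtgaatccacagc
Ccn1, target: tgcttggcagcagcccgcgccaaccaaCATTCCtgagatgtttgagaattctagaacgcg
Amotl2, target: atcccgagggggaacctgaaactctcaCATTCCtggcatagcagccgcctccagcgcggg
The Yap1 stretch lies at chr9:8004705-8004764 on the minus strand, with the element 141 to 136 bases before the start. The Wwtr1 stretch lies at chr3:57576014-57576073 (minus), with the element 136 to 131 bases before the start. The Tead3 stretch lies at chr17:28350955-28351014 (minus), 182 to 177 bases before the first of its 3 listed starts, and the window of another start held the element at 2 further places. The Ccn1 stretch lies at chr3:145650056-145650115 (minus), with the element 103 to 98 bases before the start. The Amotl2 stretch lies at chr9:102717712-102717771 on the plus strand, with the element 65 to 60 bases before the start. The listed windows of Tead2 and Lats2 held neither form. Of all 27025 genes in the RefSeq table, 3880 (14.4%) held the element in such a window, against 5 of these 7. Of single windows, 4153 of 32851 (12.6%) did. These are matches of letters, and no binding was measured in these tissues.

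The tissues matched their labels. All 10 epithelial marker genes were higher in the epithelium, and all 8 smooth muscle, 7 fibroblast and 8 endothelial markers were higher in the mesenchyme. Of these markers, Vil1, Vim and Actg2 had also served to choose the pools, so their separation is no independent check. The mesenchyme arrays also held 4 of 6 measured markers of enteric neurons and glia and 5 of 6 immune markers at higher levels. The mesenchyme samples are thus mixtures, and in either tissue fewer cells of a type and less RNA per cell cannot be told apart. The deposited values are log2 expression values rounded to 0.1. Array medians ran from 8.1 to 8.6 in the epithelium, with epithelium B the highest, and from 8.5 to 8.7 in the mesenchyme. Bacterial control probe sets, which have no target in mouse RNA, averaged 5.91 to 6.24 per array and serve as a rough guide to unspecific signal. That signal can differ between probe sets, and the lowest value of an array was 4.6 to 5.4. A value above these controls therefore does not by itself show expression.

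In the mesenchyme, 9 of the 10 genes were expressed at higher levels than in the epithelium, and Tead4 alone did not pass the test. A gene was called different at an adjusted p under 0.05 and a difference of at least 1 on the log2 scale (2-fold), by limma with Benjamini-Hochberg adjustment over all genes. The background was high, as 24.1% of all genes were called, 15.9% as higher in the mesenchyme and 8.20% as higher in the epithelium. The median difference of the 10 genes, mesenchyme minus epithelium, was 1.97, beside a median of 0.17 over all genes. In 9 of the 10 genes the values of the tissues did not overlap with the mesenchyme higher, which held for 30.5% of all genes. Of the 23 probe sets, 16 were called, all higher in the mesenchyme, beside 21.5% of all probe sets in either direction and 15.5% in that direction. Without overlap stood 18 of the 23, beside 29.3% of all probe sets. All 23 differences were above 0, from 0.07 to 5.93, with standard errors of 0.23 to 0.26.

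**Figure D1:**
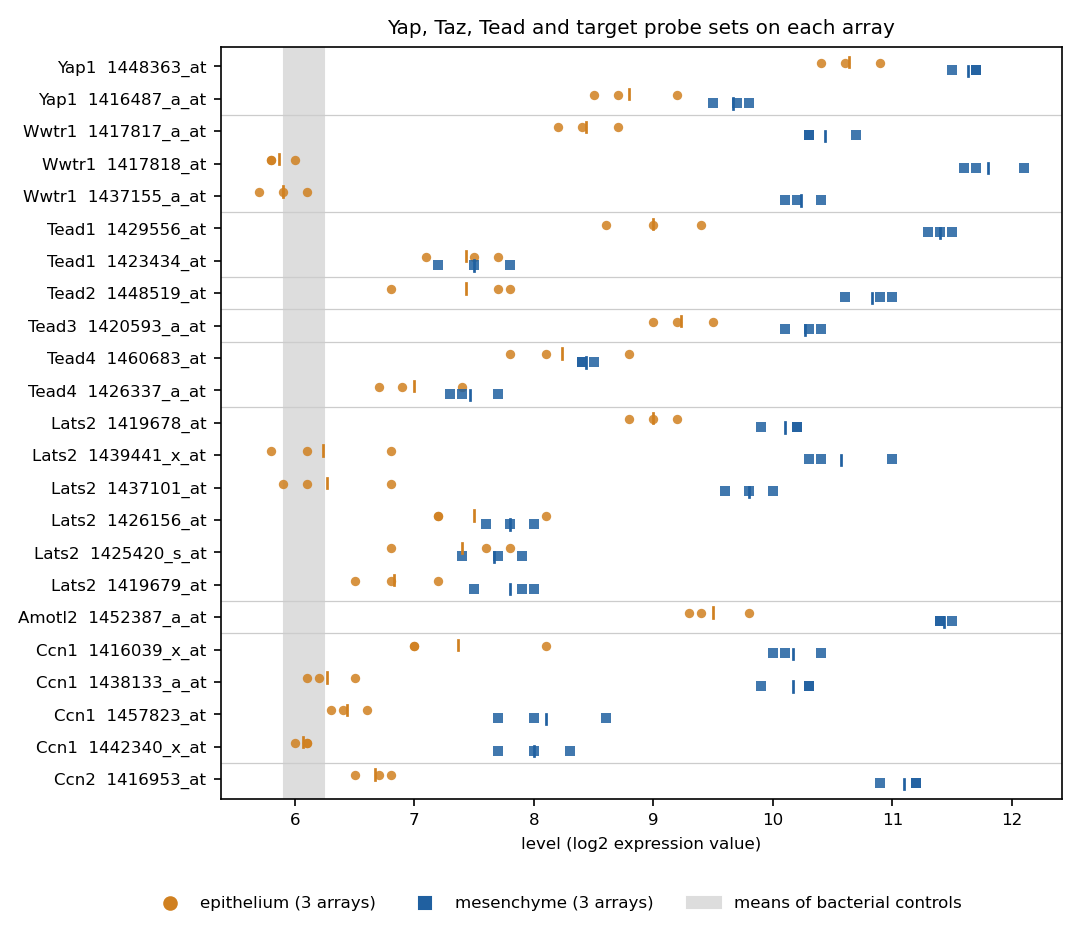
Level of each of the 23 probe sets on each array (horizontal axis, log2 expression value), with orange circles for the 3 epithelium arrays, blue squares for the 3 mesenchyme arrays and short lines for the means. The grey band spans the array means of the bacterial controls, 5.91 to 6.24, and the epithelial values of Wwtr1 at 1417818_at and 1437155_a_at lie in or just beside it.

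Yap1, the coactivator that gives the pathway its name, was well above the bacterial controls in both tissues. Its brightest probe set (1448363_at) read 10.4, 10.9 and 10.6 in epithelium A, B and C and 11.7, 11.7 and 11.5 in mesenchyme A, B and C. The tissues did not overlap, and the difference of 1.00 ± 0.23 (SE, n = 3 per tissue) was 2.00-fold (limma, adjusted p = 0.000461). The other Yap1 probe set (1416487_a_at) read 8.7, 9.2 and 8.5 against 9.8, 9.5 and 9.7, again without overlap. Its difference of 0.87 ± 0.24 had an adjusted p of 0.00311 over all probe sets but stayed under the 2-fold minimum. The Yap1 call thus sat exactly on the minimum. It was lost without epithelium A (0.88), epithelium C (0.98), mesenchyme A (0.97) or mesenchyme B (0.97), while the adjusted p stayed under 0.05 in each case.

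Wwtr1, which encodes the Yap paralogue Taz, differed more, by an amount that depended on the probe set. The brightest set (1417817_a_at) read 8.4, 8.7 and 8.2 in the epithelium, against 10.7, 10.3 and 10.3 in the mesenchyme. That is a difference of 2.00 ± 0.23, or 4.00-fold (limma, adjusted p = 3.4e-09). Probe set 1417818_at read 5.8, 5.8 and 6.0 in the epithelium, within or below the range of the bacterial controls, and 12.1, 11.7 and 11.6 in the mesenchyme. Its difference of 5.93 ± 0.23 was the largest among the 23 (61.1-fold, adjusted p = 6.35e-22 over all probe sets). The last set (1437155_a_at) read 6.1, 5.7 and 5.9 against 10.4, 10.1 and 10.2, a difference of 4.33 ± 0.23. All of these were called in the same direction without overlap, and the epithelial level came to 25.0%, 1.64% or 4.96% of the mesenchymal level. Where the epithelial value lies at the level of unspecific signal, the fold may be understated.

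Within an array, the level of Wwtr1 relative to Yap1 does not depend on how arrays are scaled as a whole. On the brightest sets, the log2 value of Wwtr1 minus that of Yap1 was -2.0, -2.2 and -2.4 in the epithelium, against -1.0, -1.4 and -1.2 in the mesenchyme. The tissues did not overlap in this measure and differed by 1.00, with an exact two-sided permutation p of 0.1, the smallest that 3 against 3 arrays can give. The Wwtr1 value relative to that of Yap1 was thus higher on each mesenchyme array, and the permutation test cannot give a p under 0.05 at this number of arrays. With plain probe sets in place of the brightest ones the difference of this measure was 4.93, and with the mean of all probe sets of each gene 3.16. Under quantile normalization and cyclic loess, which do not shift an array as a whole, it was 0.78 and 0.82.

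Among the Tead genes, which encode the DNA-binding partners, Tead2 differed most. Its probe set (1448519_at) read 6.8, 7.8 and 7.7 in the epithelium, against 10.9, 11.0 and 10.6 in the mesenchyme. The tissues were far apart, by 3.40 ± 0.25 (SE, n = 3 per tissue), or 10.6-fold (limma, adjusted p = 3.25e-14). Tead1 had its brighter probe set (1429556_at) at 8.6, 9.4 and 9.0 in the epithelium, against 11.5, 11.3 and 11.4 in the mesenchyme. This difference of 2.40 ± 0.24 was 5.28-fold (limma, adjusted p = 6.88e-11). The dimmer Tead1 set (1423434_at) showed no such gap, at 7.1, 7.7 and 7.5 against 7.5, 7.2 and 7.8 (0.07 ± 0.24, adjusted p = 0.853 over all probe sets). The probe sets of Tead1 therefore disagreed, and the result for this gene rests on the brighter one.

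Tead3 and Tead4 stood nearer to equality. Tead3 (1420593_a_at) read 9.2, 9.5 and 9.0 in the epithelium, against 10.4, 10.3 and 10.1 in the mesenchyme, without overlap. Its difference of 1.03 ± 0.23 was 2.05-fold (limma, adjusted p = 0.000322), and the call was lost without epithelium C (0.92) or mesenchyme A (0.97), where the fold fell under the minimum. Tead4 had its brighter set (1460683_at) at 7.8, 8.8 and 8.1 in the epithelium, against 8.4, 8.5 and 8.4 in the mesenchyme. Here the epithelial pools spread around the mesenchymal ones, and the difference of 0.20 ± 0.24 did not pass (limma, adjusted p = 0.554). The dimmer Tead4 set (1426337_a_at) read 6.9, 7.4 and 6.7 against 7.7, 7.3 and 7.4, a difference of 0.47 ± 0.24 that did not pass either (adjusted p = 0.125 over all probe sets). The sign of the Tead4 difference turned with the scaling of the arrays, from -0.13 to 0.46, and without epithelium A it was -0.02.

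**Figure D2:**
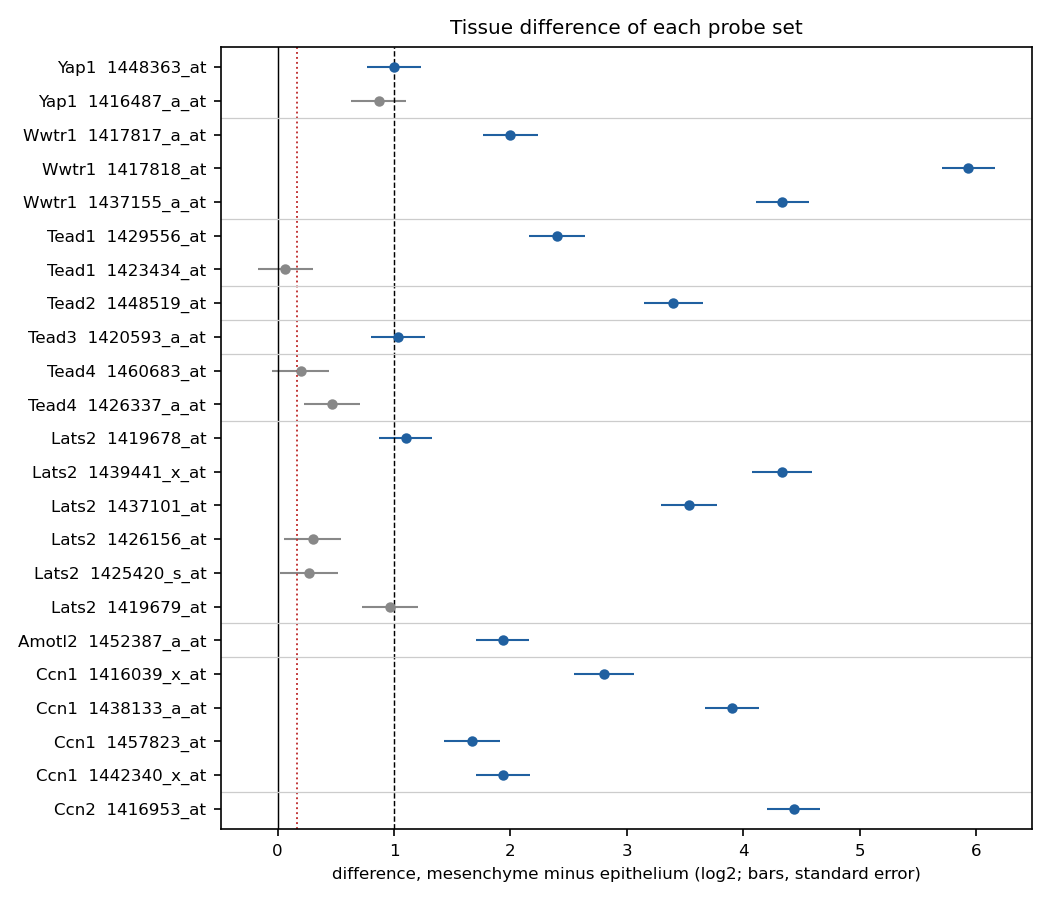
Difference of each probe set, mesenchyme minus epithelium (horizontal axis, log2; bars are the standard error of the limma fit), with called sets in blue and the others in grey. The dotted red line marks the median of all probe sets, 0.17, and the dashed line the minimum of 1 for a call, which 16 of the 23 sets reached.

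Ccn2 and Ccn1 encode secreted matricellular proteins and are the targets most often used to read Yap activity. Ccn2 (1416953_at) read 6.5, 6.8 and 6.7 in the epithelium, close above the bacterial controls, and 11.2, 11.2 and 10.9 in the mesenchyme. With 4.43 ± 0.23 (SE, n = 3 per tissue), or 21.6-fold, it had the largest difference of the 10 genes by their brightest sets (limma, adjusted p = 1.46e-18). The epithelial level was 4.63% of the mesenchymal one.

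Ccn1 was measured by 4 probe sets, all called higher in the mesenchyme without overlap. The brightest (1416039_x_at) read 7.0, 8.1 and 7.0 in the epithelium, with epithelium B above the others, and 10.4, 10.1 and 10.0 in the mesenchyme. Its difference of 2.80 ± 0.26 was 6.96-fold (limma, adjusted p = 1.2e-11). Set 1438133_a_at read 6.1, 6.5 and 6.2 against 10.3, 10.3 and 9.9, a difference of 3.90 ± 0.23. The remaining sets, 1457823_at and 1442340_x_at, were dimmer and differed by 1.67 ± 0.24 and 1.93 ± 0.23. Ccn2 relative to Ccn1 on the same array was -0.5, -1.3 and -0.3 in the epithelium, against 0.8, 1.1 and 0.9 in the mesenchyme, a difference of 1.63 without overlap (exact two-sided permutation p = 0.1, the smallest possible). With plain probe sets this difference was 2.77, and with the mean of all probe sets of each gene 1.86. The relation depended on the Ccn1 probe set. Set 1438133_a_at, at 3.90, came nearer to the 4.43 of Ccn2 than the brightest set did. On that set the epithelial values of Ccn1 lay below those of Ccn2 on each array, unlike on the brightest set.

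Amotl2 encodes an angiomotin family protein that binds Yap and holds it out of the nucleus. Its probe set (1452387_a_at) read 9.3, 9.8 and 9.4 in the epithelium, against 11.4, 11.5 and 11.4 in the mesenchyme. The mesenchymal pools lay almost on 1 value, and the difference of 1.93 ± 0.23 was 3.82-fold (limma, adjusted p = 5.15e-09).

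Lats2, one of the kinases that phosphorylate Yap and Taz and itself a Yap target, had 6 probe sets, of which 3 were called. The brightest (1419678_at) read 9.0, 9.2 and 8.8 in the epithelium, against 10.2, 10.2 and 9.9 in the mesenchyme. The difference of 1.10 ± 0.23 was 2.14-fold (limma, adjusted p = 0.000135). Set 1439441_x_at read 5.8, 6.8 and 6.1 against 11.0, 10.4 and 10.3, and set 1437101_at read 5.9, 6.8 and 6.1 against 10.0, 9.6 and 9.8. These differed by 4.33 ± 0.25 (20.2-fold) and 3.53 ± 0.24 (11.6-fold), from epithelial values around the bacterial controls. Of the sets not called, 1419679_at differed by 0.97 with an adjusted p of 0.0012 over all probe sets, under the 2-fold minimum. The sets 1426156_at and 1425420_s_at differed by 0.30 and 0.27 (adjusted p = 0.379 and 0.449). The size of the Lats2 difference thus ran from 0.27 to 4.33 with the probe set. A further set (1421055_at), annotated to both Xpo4 and Lats2, was not counted and differed by 0.00.

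Lats1, the paralogue of Lats2, was at 10.60 ± 0.44 (SD, n = 3) in the epithelium, against 10.87 ± 0.15 in the mesenchyme (0.27 ± 0.24 SE, limma, adjusted p = 0.406). Lats2 relative to Lats1 on the same array was -1.4, -1.9 and -1.5 in the epithelium, against -0.8, -0.7 and -0.8 in the mesenchyme. It differed by 0.83 without overlap (exact two-sided permutation p = 0.1, the smallest possible), and by 1.75 with the mean of all probe sets of each gene. Under quantile normalization and cyclic loess this difference was 0.68 and 0.71. Adjusted over the 3 such relations examined, each p remained 0.1.

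How arrays are scaled touched the smaller differences. Equal medians, quantile normalization, cyclic loess and centring on ribosomal protein genes each moved the median of all genes down by 0.21 to 0.32, and centring on the hybridization spike-ins moved it up by 0.26. The share of called genes that were higher in the mesenchyme was 66.0% as deposited, 48.8% to 55.4% under the downward scalings and 77.5% with the spike-ins. Mesenchyme B had a spike-in mean of 9.8, beside 10.56 to 10.77 on the other arrays. With spike-in centring and mesenchyme B left out, the median of all genes moved by only -0.01 and the share was 66.8%. Under each of the downward scalings, 6 of the 10 genes were called. Those 6 were Wwtr1, Tead1, Tead2, Ccn1, Ccn2 and Amotl2, which kept their call in all 18 alternatives run. Yap1 ranged from 0.68 to 1.26 over the scalings, Tead3 from 0.71 to 1.29 and Lats2 from 0.78 to 1.36. Each of these kept its direction. With spike-in centring and mesenchyme B left out, Yap1, Tead3 and Lats2 differed by 0.94, 0.99 and 1.02.

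**Figure D3:**
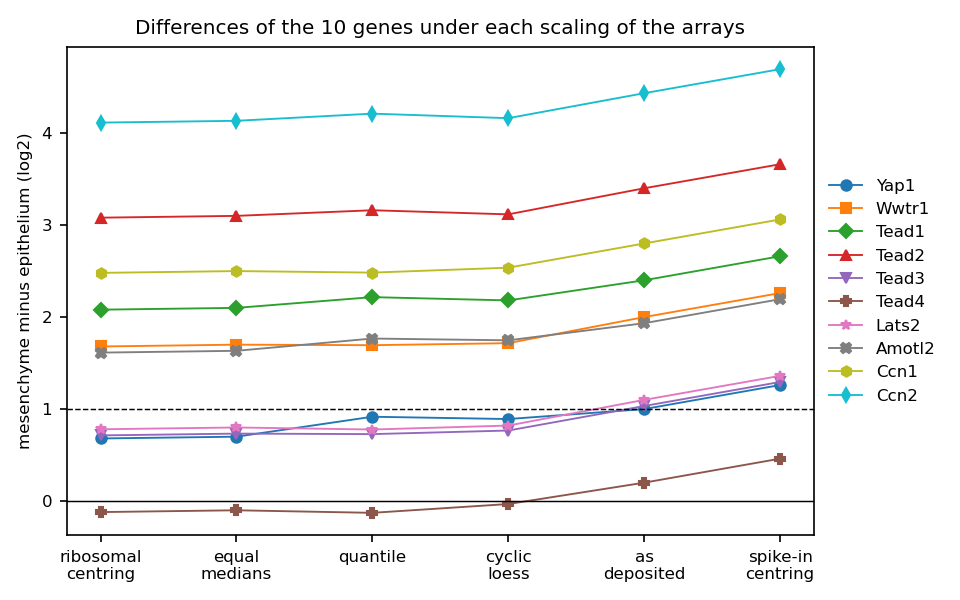
Difference of each of the 10 genes by its brightest probe set (vertical axis, mesenchyme minus epithelium, log2) under 6 ways of scaling the arrays (horizontal axis). Yap1, Tead3 and Lats2 cross the dashed line at 1, the minimum for a call, and Tead4 crosses 0, whereas the other 6 genes stay above 1 in every scaling shown. The spike-in points include mesenchyme B, whose spike-in mean was the lowest.

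Among genes of the Hippo pathway outside the 10, upstream and membrane-associated genes were called in both directions. The list held 24 genes of the kinase cassette and its regulators, of which 23 were measured. Of these, 9 were higher in the mesenchyme, 3 were higher in the epithelium, against 11 were not called, with a median difference of 0.73 beside 0.17 over all genes and 24.1% of all genes called. In the core, the kinases Stk4 (0.23 ± 0.25, limma, adjusted p = 0.505) and Lats1 and the kinase partner Mob1b (0.13 ± 0.24, adjusted p = 0.703) did not pass. Mob1a differed by 0.73 ± 0.24 (adjusted p = 0.0127), under the minimum, and the scaffold gene Sav1 was higher in the mesenchyme by 1.17 ± 0.23. The Sav1 call was lost under the downward scalings (0.847 to 0.995) and with the mean of its probe sets (0.98). Nf2, which encodes the upstream regulator merlin, did not pass (0.53 ± 0.23, adjusted p = 0.0633).

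The largest difference of this list was that of Fat4, an atypical cadherin, at 6.60 ± 0.10 (SD, n = 3) in the epithelium, against 11.43 ± 0.25 in the mesenchyme (4.83 ± 0.23 SE, 28.5-fold, limma, adjusted p = 1.69e-19). Its other probe set differed by 7.13, with epithelial values of 5.0, 5.1 and 5.3 below the bacterial controls, so that no measured epithelial level stands behind that size. Dchs1, which encodes the cadherin that Fat4 binds on neighbouring cells, was higher in the mesenchyme by 2.10 ± 0.23. The FERM domain gene Frmd6 (2.97 ± 0.24), the angiomotin family gene Amotl1 (2.67 ± 0.25), the kinase gene Map4k4 (2.33 ± 0.23) and the LIM protein gene Wtip (2.20 ± 0.24) were also higher there. Ajuba and Ptpn14 were higher by 2.03 and 1.83.

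The 3 genes higher in the epithelium were Taok3, a kinase gene (1.80 ± 0.25 higher), Wwc1, which encodes the scaffold Kibra (1.73 ± 0.23 higher), and Amot (1.37 ± 0.25 higher). Members of the angiomotin family were thus called in opposite directions, with Amot higher in the epithelium and Amotl1 and Amotl2 in the mesenchyme. The other probe sets of Amot differed by -0.37 and 0.47, neither called, and the mean of its 3 sets was not called.

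Of 8 listed cofactor genes of Yap, Taz or Tead, 6 were measured and 1 was called, a share near that of all genes (24.1%), with a median of 0.20. That gene was Vgll3, a vestigial-like protein that binds Tead, at 5.70 ± 0.10 (SD, n = 3) in the epithelium, against 8.20 ± 0.50 in the mesenchyme (2.50 ± 0.24 SE, limma, adjusted p = 5.2e-11). Its other sets were also called, by 2.00 and 2.40. The epithelial values of the brightest set, 5.8, 5.6 and 5.7, lay below the bacterial controls, so that the size of this difference has no measured epithelial level behind it. Vgll1, Vgll2, Vgll4 and Trp73 were not called (-0.27 to 0.43). Runx1 was not called by its brightest set (0.17 ± 0.23), while 3 dimmer sets of this gene were called, from 1.07 to 1.37 higher in the mesenchyme.

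Other genes known as Yap targets in cultured cells were called in 1 direction. Of 18 measured, 10 were higher in the mesenchyme, none was higher in the epithelium and 8 were not called. Of all genes, 15.9% were called higher in the mesenchyme and 8.20% higher in the epithelium. The median of the list was 1.48, beside 0.17 over all genes. Ptpn14, which was called, and Fjx1 also belong to the list of upstream genes above. The largest differences were those of Igfbp3, an insulin-like growth factor binding protein (5.10 ± 0.23, 34.3-fold), and Foxf2, a forkhead factor of the gut mesenchyme (4.20 ± 0.24, 18.4-fold). Next came F3, the tissue factor gene (3.87 ± 0.27), Ccdc80, a matrix protein gene (3.00 ± 0.23), and the receptor tyrosine kinase gene Axl (2.80 ± 0.25). Ankrd1, a much used Yap target, read 6.37 ± 0.12 (SD, n = 3) in the epithelium, against 7.17 ± 0.40 in the mesenchyme and was not called (0.80 ± 0.24 SE, limma, adjusted p = 0.00599, under the minimum). Its epithelial values (6.3, 6.5 and 6.3) lay just above the bacterial controls. It was called without mesenchyme B (1.03), with spike-in centring (1.06) and with spike-in centring without mesenchyme B (1.0), while its other probe set differed by 0.03. Nuak2 and Gadd45a differed by -0.37 and -0.23 and were not called either. For Fjx1, Nt5e and Crim1 the brightest set was not called but a dimmer one was, by 1.87, 1.40 and 1.80 higher in the mesenchyme.

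Among genes known from the Yap-dependent response of the injured intestinal epithelium, none was called higher in the fetal epithelium on the deposited values. Of 12 listed, 8 were measured, of which 5 were higher in the mesenchyme and 3 were not called, with a median of 1.88. Of all genes, 15.9% were called higher in the mesenchyme and 8.20% higher in the epithelium. The 5 were Anxa1 (4.47 ± 0.23) and Anxa3 (3.00 ± 0.23), which encode annexins, the cytokine gene Il33 (3.00 ± 0.30), Msln (2.63 ± 0.23) and the growth factor gene Ereg (1.13 ± 0.23, lost under the downward scalings, where it was 0.81 to 0.95). Msln is also a marker of mesothelium, 3 of whose 5 markers, Msln itself among them, were higher in the mesenchyme. The part of mesothelium in the result was not tested. Clu, a marker of regenerating epithelium, differed by 0.77 ± 0.23 (limma, adjusted p = 0.00598) and was not called by its brightest set. Of its 3 dimmer sets, 2 were called higher in the mesenchyme (1.3 and 1.13), and it was called with the mean of its sets (1.03) and with spike-in centring (1.03). Il1rn and Ctse differed by -0.43 and -0.70 and were not called. With equal medians or ribosomal centring, Ctse, which encodes an aspartic protease, was called higher in the epithelium (-1.0 and -1.02).

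The CCN family, to which Ccn1 and Ccn2 belong, had all 6 of its genes measured. Of these, 4 were higher in the mesenchyme and 2 were not called, while 15.9% of all genes were called higher in the mesenchyme. Ccn1 and Ccn2 were already counted among the targets above, so the family added only Ccn3 and Ccn4 as called genes. Ccn3 (2.80 ± 0.24, 6.96-fold) and Ccn4 (2.67 ± 0.23, 6.35-fold) joined Ccn1 and Ccn2, whereas Ccn5 (0.20 ± 0.22) and Ccn6 (-0.30 ± 0.24) did not pass.

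**Figure D4:**
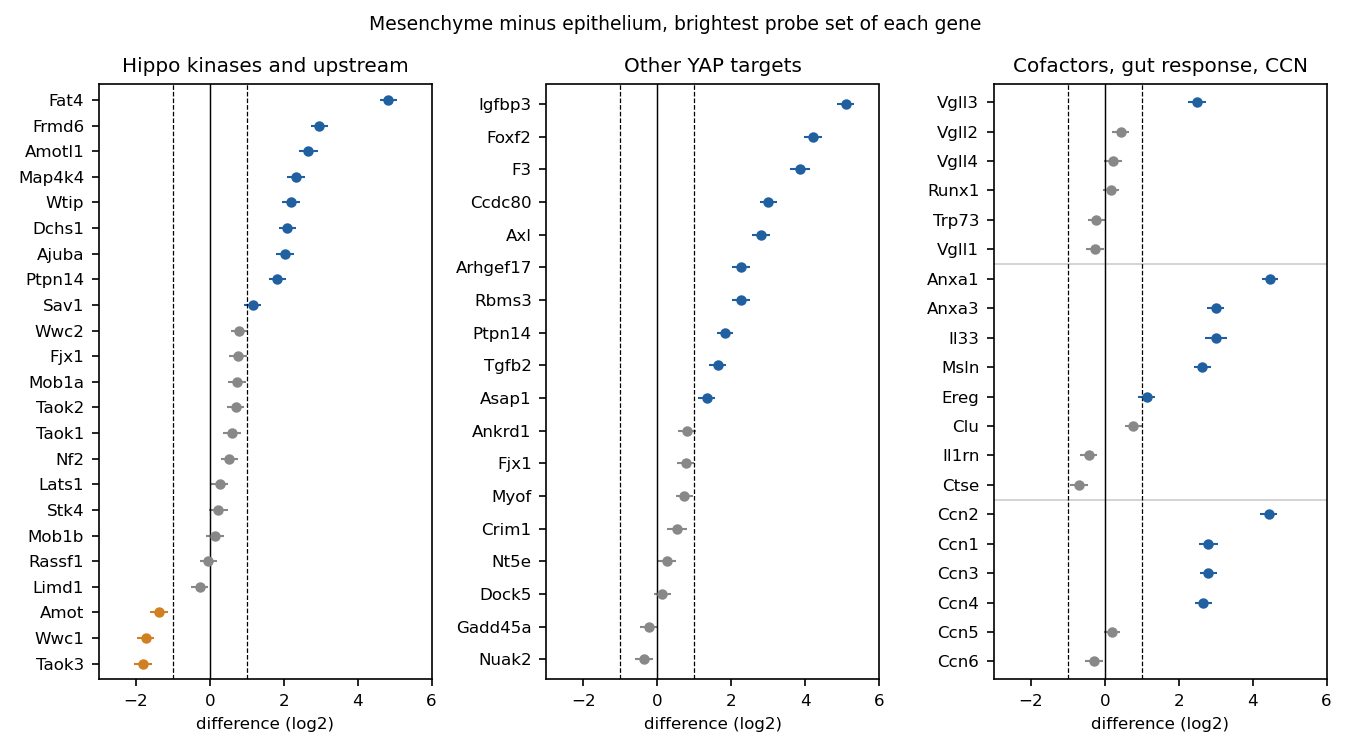
Difference of each measured gene of the lists (horizontal axes, mesenchyme minus epithelium, log2, brightest probe set; bars are standard errors), with genes called higher in the mesenchyme in blue, higher in the epithelium in orange and not called in grey. Fat4, Igfbp3, Anxa1 and Ccn2 lead their groups, and only Amot, Wwc1 and Taok3 are called higher in the epithelium.

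Ccn1 and Ccn2 are also known as immediate early genes, which respond within minutes to handling of tissue, and the tissues had been kept cold for 9 hours. Of 16 immediate early genes, 3 were higher in the mesenchyme (Dusp1 by 3.27, Ier3 by 1.73 and Egr1 by 1.5), 1 was higher in the epithelium (Zfp36, 1.10 higher there) and 12 were not called, a share of calls near that of all genes (24.1%). Zfp36 was not called without epithelium B (-0.90) or with spike-in centring (-0.84). Junb (-0.83) was called higher in the epithelium under the downward scalings (-1.05 to -1.16) and without epithelium A (-1.03). Toward the mesenchyme, Egr2 (0.90) was called with spike-in centring (1.16) and without epithelium B (1.15). Srf (0.30) was called with the mean of its probe sets (1.43), and its dimmer set differed by 2.57. The median of the list was 0.27, and Fos (-0.20) and Jun (0.43) were not called. The log2 of the summed unlogged level of the list ran from 13.69 to 14.33 in the epithelium and from 14.09 to 14.22 in the mesenchyme, with epithelium B the highest. The part of tissue handling in the Ccn1 and Ccn2 results was not tested.

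The share of the mesenchymal level that remained in the epithelium differed among the genes. By their brightest sets, the epithelial level was 50.0% of the mesenchymal level for Yap1, 48.9% for Tead3, 46.7% for Lats2, 26.2% for Amotl2 and 25.0% for Wwtr1. It was 18.9% for Tead1, 14.4% for Ccn1, 9.47% for Tead2 and 4.63% for Ccn2. For markers of the cells of the mesenchyme the median share was 1.18% over the 7 fibroblast genes (range 0.680% to 5.57%), 4.10% over the 8 smooth muscle genes (0.665% to 26.2%) and 7.78% over the 8 endothelial genes (2.06% to 22.8%). The epithelial Yap1, Tead3 and Lats2 levels by these brightest sets were a larger share of the mesenchymal level than that of any of these 23 marker genes. This did not hold for every marker class. Over the 5 mesothelium genes the median share was 46.7%, with a highest value of 89.1%. The 2 erythroid genes had shares of 30.8% and 74.1%, and the 2 genes of interstitial cells of Cajal 10.4% and 24.4%. The part of cross-contamination in these shares was not tested. Over the 6 neuron and glia genes the median share was 8.09%, with a highest value of 75.8%, and over the 6 immune genes 6.74%, with a highest value of 132%. For Wwtr1 and Lats2 the answer depended on the probe set, since the dimmer sets of Wwtr1 had shares of 1.64% and 4.96% and the other called sets of Lats2 had shares of 4.96% and 8.64%. Shares may be overstated where the epithelial value lies near unspecific signal, whose level was not known for each probe set.

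**Figure D5:**
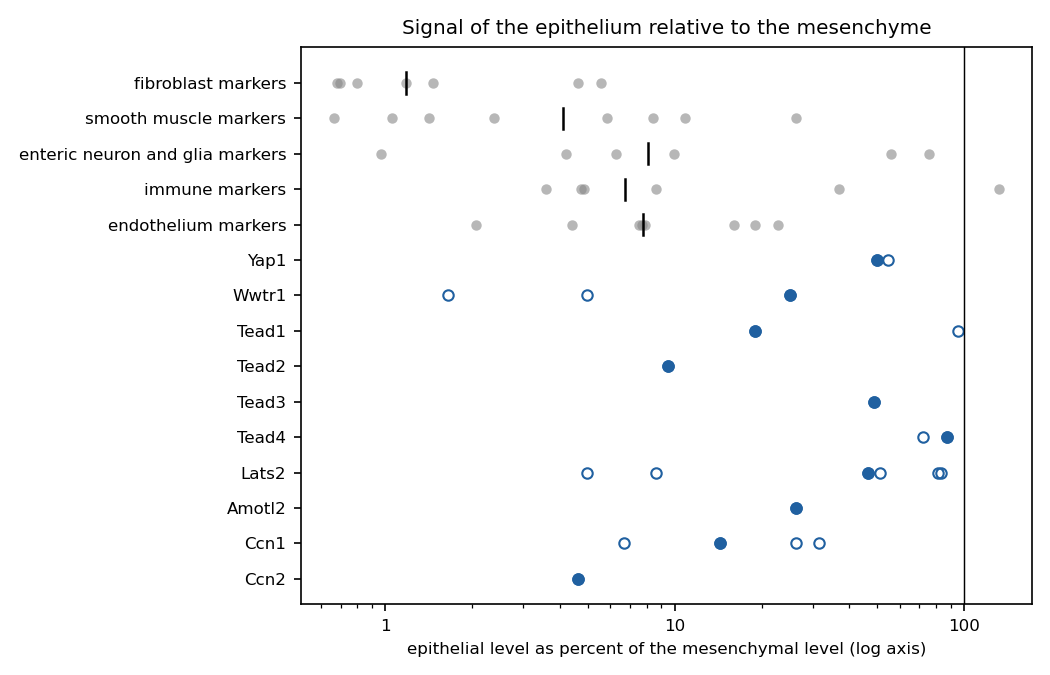
Epithelial level as a percent of the mesenchymal level (horizontal log axis). Grey points are marker genes of 5 cell classes with black bars for the medians, filled blue points are the brightest probe set of each of the 10 genes and open points are their other sets. Yap1, Tead3 and Lats2 lie near 50% by their brightest sets and Ccn2 lies at 4.63%, within the range of each of the 5 classes.

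The genes whose profile over the 6 arrays was most like that of Yap1, each centred on its own mean, were Emb, Itm2c and Casd1, with root mean square distances of 0.04, 0.04 and 0.05. Within the last of these distances lay 11 genes. Nearest to Wwtr1 were Fam217b (0.05), Opcml (0.07) and Prrg3 (0.07). These hold for its brightest probe set only, which differed by 2.00 between the tissues, beside 5.93 and 4.33 for its other sets. Nearest to Ccn2 were Bmp4, a growth factor gene of the gut mesenchyme (0.07), Emilin1, a matrix gene (0.07), and Igfbp2 (0.07). The tissue differences of the genes nearest to Ccn2 were 4.53, 4.53 and 4.5, beside its own 4.43, so that in 6 arrays this likeness largely follows the size of the difference.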

How the data were processed

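The 6 samples were grouped by the tissue in their labels. Per the submitters' processing notes, the authors used RMA to obtain the deposited log2 values. Not given in the sources used here are its version and the step between arrays. The arrays hold 45101 probe sets. Without 64 controls, 45037 were fitted with limma 3.58.1 (R 4.3.3, lmFit and eBayes, no covariate, 4 residual and 31.71 prior degrees of freedom). Platform symbols (34945 probe sets with 1 symbol, 932 with several and 9160 with none) were updated through RefSeq names of GRCm38.p6. A gene took the row of its probe set with the highest mean, with Benjamini-Hochberg adjustment over 18161 genes. The fit itself used all probe sets, a reading of the written design settled after values had been seen. A fit on 1 probe set per gene was run as an alternative. The number of arrays limits the precision, and no detection calls were used. The fit was tested on simulated data.

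The genes and lists were chosen with earlier results of these data known. Named were the 10 genes with every probe set, up to 5 called genes per direction and list, and the 3 nearest profiles of Yap1, Wwtr1 and Ccn2. Further list genes in the text were picked with their values in view, outside that rule. Some listed genes were not analysed here. Promoters of Ccn2, Tead1 and Tead4 were not used here. The replicate letters were not treated as pairs. Alternatives covered scaling, probe set choice, variance model, dim probe sets (mean under 7 in both tissues), replicate letters, left-out arrays and the fold minimum.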

Additional observations from a re-analysis of the deposited data

How the results depend on the processing

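With a fold minimum of 1.5 in place of 2, 7291 genes and 16633 probe sets were called, in place of 4380 and 9671, with 7 in place of 4 immediate early genes (a count examined across alternatives after the data were seen) and 9 of the 10 genes as before. No called difference of a listed gene changed direction in any alternative, and the other counts of called genes per list, both directions together, stayed within 1.5 times of those reported. The count of the 10 genes ran from 7 to 9 with each array left out in turn, and was 8 with the mean of all probe sets of a gene and 7 with spike-in centring without mesenchyme B. With the replicate letter as a block (replicate block), 9 of the 10 genes and 4363 genes in all were called, and no call of a listed gene changed. The size of the adjusted p-values, however, depended strongly on the variance model. For Ccn2 the limma adjusted p was 1.46e-18 as reported, 1.78e-06 with the block and 1.4e-77 with trend and robust variance. For Wwtr1 it was 3.4e-09 as reported and 0.000179 with the block. Deviations from the tissue means correlated at -0.311, -0.151 and 0.12 between arrays of the same letter, which gave no sign of pairing, and not every array correlated best with its own letter. A fit on 1 probe set per gene, added after the data were seen, called 4381 genes and the same 9. The limits are 3 selected pools per tissue, values rounded to 0.1, no detection calls and probe sets of Wwtr1, Tead1 and Lats2 that differ in size. The causes of these differences between probe sets were not tested.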
